A study of Homo sapiens with 6 samples.

Results

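The MYB and MYC family was examined in RNA-seq of H1 human embryonic stem cell (hESC) derivatives at day 8 of hematopoietic differentiation, when endothelial cells give rise to hematopoietic progenitors. The 10 genes were picked by symbol from the 58364 rows with values: MYB, MYBL1 and MYBL2, the proto-oncogenes MYC, MYCN and MYCL, and MAX, MXD1, MXD4 and MXI1. Each symbol had 1 row, and 9 of the 10 genes were among the 15895 genes that averaged 0.5 FPKM or more (fragments per kilobase of transcript, scaled to all mapped fragments) and entered the tests. H1 is an established hESC line. There were 2 libraries of wild-type (WT) H1 cells and 4 labelled MSX2_KO, which came from lines infected with a lentivirus carrying Cas9 and a guide against the second exon of MSX2 and were called MSX2-/-. The 4 are replicates 1 and 2 of lines 1# and 2#, each grown from 1 selected colony, so that genotype cannot be told apart from what is particular to these colonies. The labels name CD31+ cells for the MSX2_KO libraries alone, while the study's text names them for both genotypes. All cells were induced with activinA, BMP4, VEGF and bFGF, per the labels. The growth protocol in the labels also speaks of HAND1 overexpression, which is not part of this series. In the sample descriptions replicate 1 carries the set letter F and replicate 2 the letter S, with no word on what the letters stand for.

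MYB proteins are DNA-binding activators. c-MYB, encoded by MYB, is needed for definitive hematopoiesis, MYBL1 (A-MYB) is best known from the germ line, and MYBL2 (B-MYB) acts with the MuvB complex on genes of G2 and mitosis. MYC, MYCN and MYCL are helix-loop-helix leucine zipper proteins that bind the E-box CACGTG as dimers with MAX and drive ribosome production and growth. MXD1, MXD4 and MXI1 also pair with MAX, bind the same E-box and recruit SIN3 and histone deacetylases to repress transcription.

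The libraries had FPKM sums of 555286 to 617120, which do not measure library size, and 13366 to 14222 genes at 1 FPKM or more. The table holds no read counts, and ratios of its values under 0.1 FPKM put the depth of every library within 1.18 times that of WT replicate 1. MSX2 itself reached 3.64 and 1.44 FPKM in WT, and 5.62 to 31.8 FPKM in the libraries labelled MSX2_KO, a log2 difference of 1.99 ± 0.69 (SE; limma adjusted p = 0.309 without and 0.0107 with the block). The mRNA of the targeted gene was thus higher, not lower, in these libraries, and its level does not check the labels. For both clones the study reports DNA sequencing that showed a frameshift and deletion in MSX2, which the mRNA level does not address. MSX2-/- below stands for the libraries labelled MSX2_KO. PECAM1, which encodes CD31, lay between 186 and 258 FPKM in all 6 libraries. The summed level of 14 hematopoietic progenitor markers was 122 and 143 FPKM in WT and 218 to 267 FPKM in MSX2-/-. Among these markers PTPRC (CD45) was near 0, at no more than 0.115 FPKM. The sum of 12 endothelial markers was 3417 and 4151 FPKM in WT and 2303 to 3554 FPKM in MSX2-/-. The sum of 10 mesenchymal markers was 279 and 337 against 500 to 575 FPKM, with POSTN and DCN listed at 0 in 1 library each. The sum of 8 pluripotency markers was 94.4 and 112 against 114 to 135 FPKM, with SOX2 listed at 0 in all 4 MSX2-/- libraries. In bulk samples, fewer cells of a type and less RNA per cell cannot be told apart, and the part of these shifts in the results for the MYB and MYC family was not tested.

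Among the 9 tested genes, 0 passed an adjusted p of 0.05 between MSX2-/- and WT with limma (Benjamini-Hochberg over all genes tested). MYB alone of the 9 had an unadjusted p under that value, as did 1873 of all 15895 genes tested. By adjusted p, 0.963% of all genes tested were called higher and 0.321% lower. When the replicate number entered the fit as a block, MYC and MYB rose and 0 of the 9 fell, against 6.11% of all genes higher and 3.74% lower. The 4 MSX2-/- libraries lay above both WT libraries for MYB, as they did for 12.1% of all genes tested, and no member had all 4 below, against 9.19%. Each MSX2-/- library was above the WT library of its own replicate number for MYB, MYBL2, MYC, MYCN, MXD1 and MXI1, which is 6 of the 9 genes, against 23.6% of all genes. MXD4 was below in each, as were 21.3% of all genes. The exact permutation test over the 6 libraries cannot give a two-sided p below 0.0667 and was not used for calls. Nothing in the labels says that replicates came from separate cultures, so the p-values measure the spread between these libraries.

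**Figure D1:**
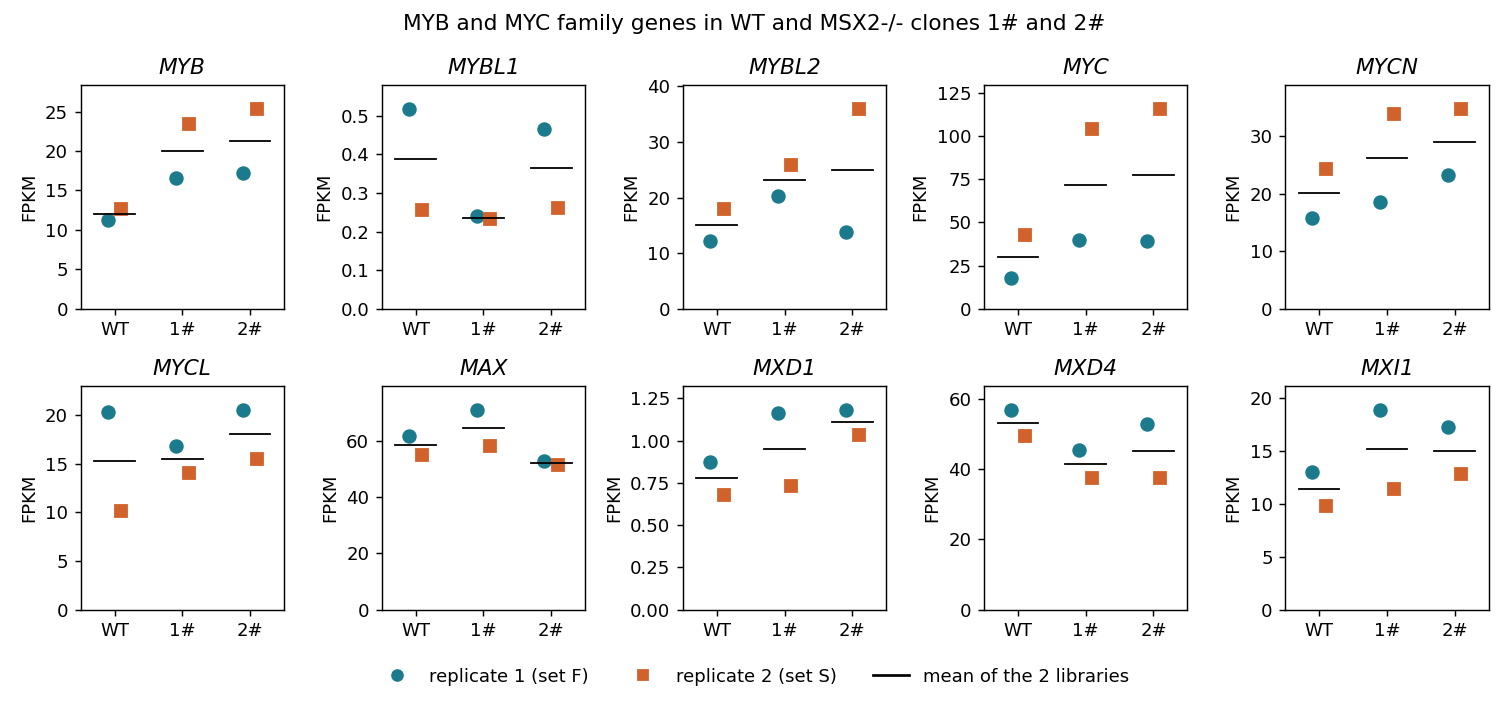
FPKM of the 10 genes (y axes from 0, a scale for each gene) in WT and the MSX2-/- clones 1# and 2# (x axes), with circles for replicate 1 (set F), squares for replicate 2 (set S) and lines for the mean of the 2 libraries. For MYB all 4 MSX2-/- libraries are above both WT libraries, and for MYC the circles of the clones, near 39 FPKM, are close to the WT square at 42.4 FPKM.

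MYB stood at 11.3 FPKM in WT replicate 1 and 12.7 FPKM in WT replicate 2, at 16.6 and 23.4 FPKM in clone 1#, and at 17.2 and 25.3 FPKM in clone 2#. The groups did not overlap, and replicate 2 was the higher one in each line. WT averaged 11.97 ± 1.02 FPKM (SD, n = 2), and MSX2-/- averaged 20.6 ± 4.41 FPKM (SD, n = 4), 1.72 times as high. The log2 difference on the log2(FPKM + 1) scale was 0.72 ± 0.21 (SE; limma adjusted p = 0.230). In the fit with the replicate block MYB rose (SE 0.11, limma adjusted p = 0.0124). The block call was lost without WT replicate 2 (adjusted p = 0.0663) or without 1# replicate 2 (adjusted p = 0.0513), and it was kept without each of the other 4 libraries (adjusted p = 0.0326 to 0.0463). The summed level of the hematopoietic markers was higher in the same libraries (10 of the 12 tested markers had positive and 2 negative differences), and their part in the MYB result was not tested. Against the WT library of the same number, MYB was 1.47 and 1.53 times as high in set F and 1.85 and 2.00 times as high in set S. The difference between these effects did not pass (log2 0.35, standard error 0.14, adjusted p = 0.465 from limma). MYB is on chromosome 6, bases 135181315 to 135219173, plus strand (GRCh38 in GENCODE 29, matched by symbol), and MYB-AS1 overlaps it on the other strand.

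MYBL2 had 12.1 and 18.0 FPKM in WT, 20.4 and 25.8 FPKM in 1#, and 13.8 and 35.9 FPKM in 2#. The groups overlapped, since 2# replicate 1 was under WT replicate 2. WT averaged 15.1 ± 4.15 FPKM (SD, n = 2), and MSX2-/- averaged 24.0 ± 9.35 FPKM (SD, n = 4). The log2 difference was 0.58 ± 0.36 (SE; limma adjusted p = 0.646 without and 0.122 with the block). MYBL1 was low in every library, at 0.518 and 0.256 FPKM in WT, 0.239 and 0.231 FPKM in 1#, and 0.466 and 0.261 FPKM in 2#, and its mean of 0.329 FPKM kept it out of the tests. MYBL2 is on chromosome 20, bases 43667019 to 43716496, plus strand.

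Promoters of MYB and MYBL2 are shown because MYB was the member whose groups did not overlap and because the MYBL2 promoter holds the E-box that MYC and MXD dimers bind. RefSeq windows of 300 bases around the start of the gene (GRCh38.p14) were found for 8 of the 10 genes, and 2 of the 8 held CACGTG on either strand (the motif reads the same on both), against 7.26% of 35116 promoters of that length. The stretches below end before the annotated gene span. For MYB it is chr6:135181058-135181307 on the plus strand and for MYBL2 chr20:43666864-43667018 on the plus strand, each 5′ to 3′, with CACGTG in capitals.
MYB: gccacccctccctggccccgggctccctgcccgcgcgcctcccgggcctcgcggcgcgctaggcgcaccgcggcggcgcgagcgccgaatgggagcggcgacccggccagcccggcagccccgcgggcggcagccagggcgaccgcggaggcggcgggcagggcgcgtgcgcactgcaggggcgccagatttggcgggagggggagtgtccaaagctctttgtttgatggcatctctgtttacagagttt
MYBL2: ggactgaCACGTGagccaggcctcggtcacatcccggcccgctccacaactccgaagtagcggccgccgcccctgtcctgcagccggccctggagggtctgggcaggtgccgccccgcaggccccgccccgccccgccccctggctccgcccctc
The MYB stretch has a GC content of 75.6% and no CACGTG, and that of MYBL2 has a GC content of 77.4%. The MYB motif TAACNG, searched on both strands, was in the windows of MYCN and MXI1 and in 20.8% of all windows. The cell cycle homology element TTTGAA, known from targets of B-MYB and MuvB, was in that of MYCN and in 15.2% of all windows. The homeobox motif TAATTG was in 0 of the 8 windows and in 7.38% of all. A match is a description of the letters and no evidence of binding.

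MYC stood at 17.8 FPKM in WT replicate 1 and 42.4 FPKM in WT replicate 2, at 39.7 and 104 FPKM in clone 1#, and at 39.0 and 116 FPKM in clone 2#. Replicate 2 was 2.38 times as high as replicate 1 in WT, 2.61 times in 1# and 2.96 times in 2#, so replicate 1 of both clones stood just under WT replicate 2 and the groups overlapped. WT averaged 30.1 ± 17.4 FPKM (SD, n = 2), and MSX2-/- averaged 74.5 ± 40.9 FPKM (SD, n = 4). Its log2 difference was 1.22 ± 0.58 (SE; limma adjusted p = 0.494). Within a replicate number the clones were close to each other: MYC was 2.23 and 2.19 times as high as in WT in set F, and 2.44 and 2.72 times as high in set S. In the fit with the replicate block MYC rose (SE 0.088, limma adjusted p = 0.00163).

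The block call for MYC was kept when each library was left out in turn, with adjusted p-values of 0.00879 to 0.0178 and log2 differences of 1.10 to 1.35. Without the block, leaving out WT replicate 1 or WT replicate 2 moved the log2 difference to 0.62 or 1.83. When the block was fitted with no filter on low FPKM, neither MYC (adjusted p = 0.0532) nor MYB (adjusted p = 0.148) passed. MYC is on chromosome 8, bases 127735434 to 127741434, plus strand, and MYBL1 is on the same chromosome, bases 66562175 to 66614247, minus strand.

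MYCN, which is best known from neural and other embryonic progenitors, had 15.8 and 24.3 FPKM in WT, 18.6 and 33.9 FPKM in 1#, and 23.2 and 34.8 FPKM in 2#. Each MSX2-/- library was above the WT library of its number, but replicate 1 of both clones was under WT replicate 2. The log2 difference was 0.43 ± 0.30 (SE; limma adjusted p = 0.702 without and 0.0575 with the block). MYCL, the paralog first found in lung cancer, had 20.3 and 10.2 FPKM in WT, 16.8 and 14.1 FPKM in 1#, and 20.6 and 15.5 FPKM in 2#. It was the 1 gene of the 3 that was lower in replicate 2 of each line. Its log2 difference was 0.19 ± 0.28 (SE; limma adjusted p = 0.906 without and 0.522 with the block). This difference turned to -0.28 when WT replicate 2 was left out of the fit without the block. The effect on MYCL was larger in set S than in set F by 0.62 ± 0.22 on the log2 scale (SE; limma adjusted p = 0.419). MYCN is on chromosome 2, bases 15940564 to 15947007, plus strand, and MYCL is on chromosome 1, bases 39895426 to 39902256, minus strand. Each shares its span with a gene on the other strand (MYCNOS and AL033527.2), from which its reads cannot be told apart if strand was not used.

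The levels of the 3 genes were then set side by side, since FPKM is scaled by length. Together they had 54.0 and 76.9 FPKM in WT, 75.1 and 152 FPKM in 1#, and 82.8 and 166 FPKM in 2#. MYC made up 33.0% and 55.2% of this sum in WT, 52.8% and 68.4% in 1#, and 47.1% and 69.7% in 2#. MYC was below MAX in both WT libraries and in replicate 1 of both clones, with MYC to MAX ratios of 0.287 to 0.769, and above it in replicate 2 of 1# (1.78) and of 2# (2.24). In those 2 libraries MYC ranked 1st of the 10 genes, while MAX did in the other 4.

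**Figure D2:**
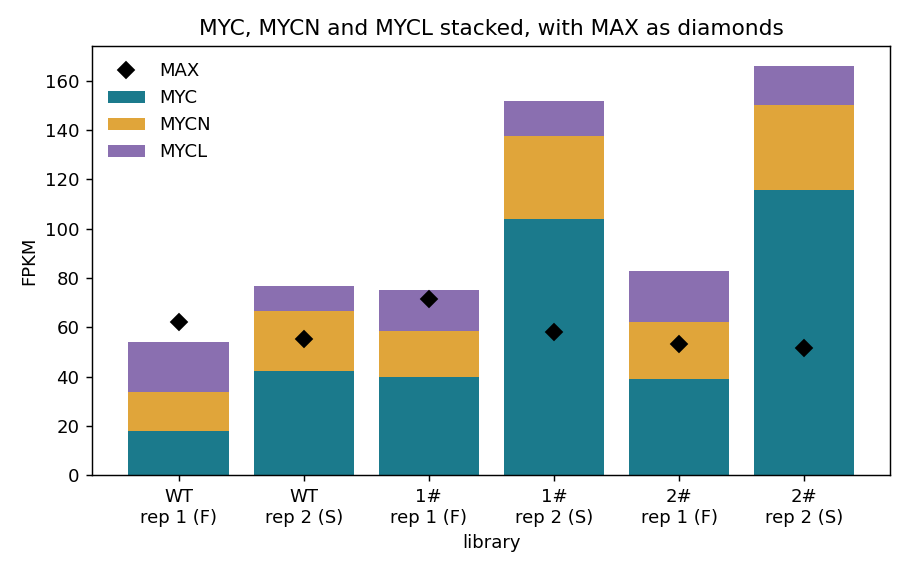
FPKM of MYC, MYCN and MYCL as stacked bars from 0 and of MAX as diamonds (y axis) in each of the 6 libraries (x axis). The sum is highest in replicate 2 of 1# (152 FPKM) and of 2# (166 FPKM), and MAX stays between 51.5 and 71.3 FPKM.

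MAX, the shared partner, had 62.0 and 55.2 FPKM in WT, 71.3 and 58.2 FPKM in 1#, and 53.1 and 51.5 FPKM in 2#. The groups overlapped, and within each replicate number the WT library lay between clone 1# above and clone 2# below it. The log2 difference was -0.01 ± 0.16 (SE; limma adjusted p = 0.994), with a 95% interval of -0.39 to 0.37, and its sign depended on the libraries used. FNTB and CHURC1-FNTB overlap MAX on the other strand of chromosome 14, where MAX spans bases 65006174 to 65102695 of the minus strand.

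Among the repressors, MXD4 was the most abundant, with 56.8 and 49.5 FPKM in WT, 45.2 and 37.4 FPKM in 1#, and 52.7 and 37.4 FPKM in 2#. It was at 0.756 to 0.927 times the WT library of the same number in the 4 MSX2-/- libraries. Its log2 difference was -0.30 ± 0.17 (SE; limma adjusted p = 0.600 without and 0.0874 with the block). MXI1 had 13.0 and 9.83 FPKM in WT, 18.9 and 11.4 FPKM in 1#, and 17.3 and 12.8 FPKM in 2#, with a log2 difference of 0.36 ± 0.24 (SE; limma adjusted p = 0.679 without and 0.0788 with the block). MXD1 was near 1 FPKM, at 0.876 and 0.680 FPKM in WT, 1.17 and 0.730 FPKM in 1#, and 1.18 and 1.03 FPKM in 2#. Its log2 difference was 0.19 ± 0.18 (SE; limma adjusted p = 0.822 without and 0.491 with the block), and it shares its span with SNRNP27 on the same strand. MXD4 made up 80.4% and 82.5% of the sum of the 3 repressors in WT and 69.3% to 75.5% in MSX2-/-. Of the 10 sums, ratios and shares computed, this was the only 1 in which the groups did not overlap. Among single genes, 12.1% of all tested had all 4 MSX2-/- libraries above both WT libraries, and 9.19% had all 4 below. The ratio of the MYC, MYCN and MYCL sum to the sum of the 3 repressors was 0.764 and 1.28 in WT, 1.15 and 1.16 in replicate 1 of the clones and 3.07 and 3.23 in replicate 2. MXD1 is on chromosome 2 (bases 69897688 to 69942945, plus strand), MXD4 on chromosome 4 (bases 2247432 to 2262294, minus strand) and MXI1 on chromosome 10 (bases 110207605 to 110287365, plus strand).

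The MXD4 promoter is the other one of the 8 that holds the E-box, and the 65 bases before the gene span are shown for this reason. They are chr4:2262295-2262359 on the minus strand (GRCh38.p14, RefSeq), 5′ to 3′, with CACGTG in capitals.
MXD4: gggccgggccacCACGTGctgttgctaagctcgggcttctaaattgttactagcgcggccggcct
The E-box of MXD4 is at 2262342 to 2262347 and that of MYBL2, shown above, at 43666871 to 43666876.

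The clones were next compared with WT one by one. Without the block, 0 of the 9 genes passed for 1# and 0 for 2#, against 0.00629% of all genes for each clone. With the block, MYC rose in both clones, with a log2 difference of 1.19 for 1# (limma adjusted p = 0.0131) and of 1.25 for 2# (limma adjusted p = 0.0114). It was the 1 of the 9 genes to pass in either clone, against 2.29% of all genes higher in 1# and 2.59% in 2#. For MYB the log2 differences were 0.68 for 1# (limma adjusted p = 0.0669) and 0.76 for 2# (limma adjusted p = 0.0507). Both clones were set against the same WT libraries. Between 2# and 1# none of the 9 genes passed, nor did any gene at all (0%) with the block in limma. Of the 15895 genes tested, 530 had an unadjusted p under 0.05, a cut that some genes pass with no difference at all. The difference of 2# minus 1# was 0.06 for MYC (95% interval -0.22 to 0.35) and 0.08 for MYB (95% interval -0.27 to 0.42). For MAX it was -0.29, and its interval of -0.54 to -0.05 did not include 0 (adjusted p = 1 over all genes).

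**Figure D3:**
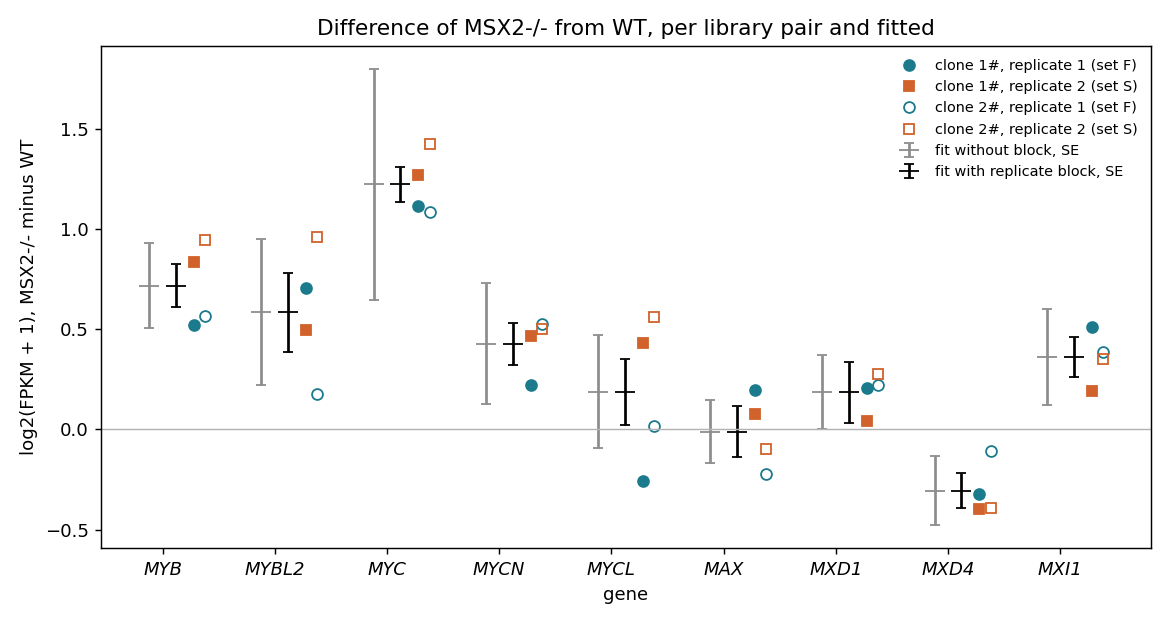
Difference from WT on the log2(FPKM + 1) scale (y axis) for the 9 tested genes (x axis), with grey and black bars for the estimate and its standard error without and with the replicate block, and points for each MSX2-/- library minus the WT library of its number. The points of MYC lie close together around 1.22, and the bar without the block (standard error 0.58) is much longer than that with it (0.088).

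The replicate sets were then compared at the same genotype. With genotype in the fit, 7 of the 9 genes differed between set S and set F at an adjusted p under 0.05 in limma. MYC, MYBL2, MYCN and MYB were higher in set S, by 1.37 (adjusted p = 0.000762), 0.73 (adjusted p = 0.0277), 0.66 (adjusted p = 0.00530) and 0.39 (adjusted p = 0.0289) on the log2 scale. MYCL, MXI1 and MXD4 were lower in set S, with log2 differences of -0.52 (adjusted p = 0.0437), -0.49 (adjusted p = 0.0120) and -0.32 (adjusted p = 0.0318). Of all genes tested, 15.6% were higher and 18.9% lower in set S. MAX (-0.17, adjusted p = 0.319) and MXD1 (-0.20, adjusted p = 0.327) did not pass. When genotype entered as 3 groups (WT, 1# and 2#), 5 of the 9 passed between the sets, and MYB (adjusted p = 0.0524) and MYCL (adjusted p = 0.0566) no longer did. All 3 set S libraries were above all 3 set F libraries for MYC and MYCN, as for 18.8% of all genes, and below them for MYCL and MXI1, as for 22.7%. MXI1 had positive differences from WT in all 4 MSX2-/- libraries and was lower in set S in each line.

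**Figure D4:**
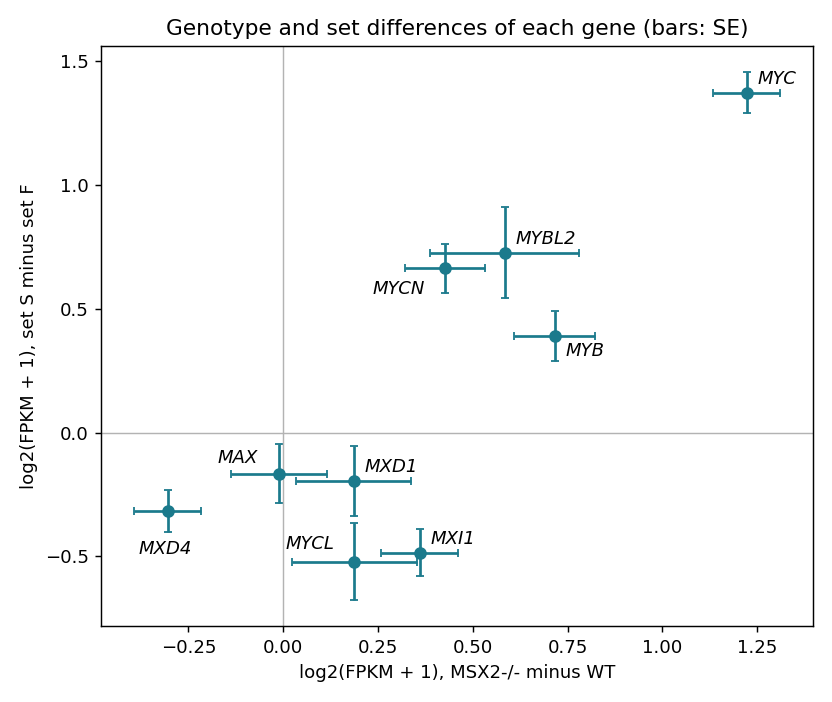
Difference of MSX2-/- minus WT (x axis) and of set S minus set F (y axis), both on the log2(FPKM + 1) scale with standard errors from the fit with both terms, for the 9 tested genes. MYC is farthest out on both axes (1.22 and 1.37), MYBL2, MYCN and MYB are positive on both, and MYCL, MXI1 and MXD1 are positive on the first and negative on the second.

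Other genes of the MYB and MYC pathways were described by list, beside all genes tested, of which 8149 had positive and 7746 negative differences between MSX2-/- and WT, with a median of 0.01. Among 29 tested MYC targets of ribosome production and metabolism, 26 had positive and 3 negative differences with a median of 0.30. Of these, 0 passed without the block, and with it 8 rose and 0 fell in limma, against 6.11% of all genes higher and 3.74% lower. ODC1, the entry enzyme of polyamine synthesis, had 3.42 and 9.47 FPKM in WT, 9.60 and 19.9 FPKM in 1#, and 7.68 and 24.5 FPKM in 2# (log2 difference 1.13, adjusted p = 0.00587 with the block). IMPDH2, which makes guanine nucleotides, had 60.9 and 76.5 FPKM in WT and 104 to 140 FPKM in MSX2-/- (0.78, adjusted p = 0.00382 with the block). NPM1 (0.51) and NME1 (0.58) also rose with the block. The nucleolar genes NCL (0.18, adjusted p = 0.378 with the block) and NOP56 (0.30, adjusted p = 0.166 with the block) did not pass. Without the block, leaving out WT replicate 1 brought the median of the list to 0.05, and leaving out WT replicate 2 brought it to 0.51. Each of these fits held WT from 1 set alone, so the set difference enters them. Between the sets the MYC targets had a median difference of 0.67, and 25 of 29 were higher in set S while 0 were lower, against a median of -0.03, 15.6% higher and 18.9% lower among all genes tested.

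Of 13 tested targets of MYB, 8 had positive and 5 negative differences with a median of 0.04. Without the block, leaving out a WT library changed this median to 0.16 (replicate 1) or 0.30 (replicate 2). Leaving out an MSX2-/- library, also without the block, gave 0.19 (1# replicate 1), 0.03 (1# replicate 2), 0.21 (2# replicate 1) or -0.01 (2# replicate 2). KLF1, the erythroid factor, rose without the block, from 9.78 and 12.3 FPKM in WT to 30.4 to 55.8 FPKM in MSX2-/- (log2 difference 1.85, adjusted p = 0.0394 from limma), and it is also among the hematopoietic markers. With the block KLF1, MYC and ADA rose and 0 of the 13 fell, against the same 6.11% and 3.74% of all genes. MYC is itself a member of the family, and its call here is the same as that given above. The stem cell genes KIT (-0.30, adjusted p = 0.376 with the block) and CD34 (0.04, adjusted p = 0.843 with the block) did not pass. MPO and ELANE, granule genes of myeloid cells, were too low to be tested, and ELANE was listed at 0 in all 6 libraries. Of 20 tested cell cycle genes known as targets of B-MYB, 0 passed with the block, with 9 positive and 11 negative differences and a median of -0.01. Without the block, leaving out WT replicate 1 moved this median to -0.47 and leaving out WT replicate 2 moved it to 0.55. Each of these fits set WT of 1 set against MSX2-/- of both sets, so the set difference enters them. Leaving out a single MSX2-/- library, also without the block, gave -0.16 to 0.18. Their summed level was 199 to 235 FPKM in the 3 libraries of set F and 401 to 465 FPKM in those of set S, and 17 of the 20 were called higher in set S, against 15.6% of all genes.

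Genes for the partners of these proteins were counted beside all genes tested, of which 6.11% were called higher and 3.74% lower with the block. The other members of the MAX network (MXD3, MNT, MGA, MLX, MLXIP and MLXIPL) had 3 positive and 3 negative differences and 0 calls with the block, and so had the 11 genes of the MuvB and DREAM complexes, with 6 and 5. The 10 genes for SIN3 corepressors and histone deacetylases had 5 positive and 5 negative differences. Without the block 1 of these 10 was called higher, against 0.963% of all genes, and with the block 1 was. Of 10 genes for coactivators and modifiers of MYB, TRIM28 rose (0.28, adjusted p = 0.0389) and HIPK2, a kinase, fell (-0.49, adjusted p = 0.0402) with the block. Of 14 coactivators and partners of MYC, RUVBL1 rose with the block (0.38, adjusted p = 0.0313), and of 13 tested genes for the turnover of the MYC protein none passed in either fit.

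Against the 6.11% of all genes called higher and 3.74% called lower with the block, 7 of 12 tested hematopoietic markers rose and 1 fell, 8 of 12 endothelial markers fell and 1 rose, 4 of 8 mesenchymal markers rose, and 1 of 6 pluripotency markers rose. No pluripotency marker passed without the block. Those of the other lists that passed without it included GYPB, GATA1 and KLF1, which rose, CLDN5, TIE1 and CDH5, which fell, and COL1A1 and TAGLN, which rose. GATA1, the erythroid and megakaryocytic factor, had 7.68 and 8.90 FPKM in WT and 17.5 to 20.8 FPKM in MSX2-/- (log2 difference 1.15, adjusted p = 0.0220 from limma). CLDN5, the endothelial tight junction protein, had 115 and 96.0 FPKM in WT and 17.1 to 28.2 FPKM in MSX2-/- (-2.28, adjusted p = 0.0121 from limma).

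Among the 9542 genes whose mean reached 5 FPKM, those whose log2 values followed MYB most closely over the 6 libraries were PRR9, CHSY1 and DVL3, with Pearson r of 0.999, 0.998 and 0.995. Those closest to MYC were RPL35A, RHOH and FAM84A, with r of 0.999, 0.998 and 0.998. An r does not reflect the size of a change: DVL3 lay between 63.1 and 78.2 FPKM and RPL35A between 1163 and 1414 FPKM. PRR9 had 0.0997 and 0.642 FPKM in WT and 4.37 to 27.9 FPKM in MSX2-/-, so it reached a mean of 5 FPKM only through the MSX2-/- libraries. RHOH, a GTPase of blood cells, had 4.38 and 7.94 FPKM in WT, 7.84 and 15.5 FPKM in 1#, and 8.24 and 17.0 FPKM in 2#. Genotype and set both differ among the 6 libraries, so these values describe the pattern and carry no test.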

How the data were processed

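RNA-seq of total RNA was analysed in 6 libraries, 2 WT and 4 MSX2_KO. The authors deposited FPKM values for every library in a column of its own, keyed by gene symbol. The series' text names BWA with ANOVA and TopHat with Cufflinks, and the submitters' processing notes list BWA, Bowtie, RSEM and the build hg19. The versions, annotation, strand setting and filters are not given in the sources used here. FPKM values hold no read counts, so depth is known only as a ratio between libraries.

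Genes that averaged 0.5 FPKM or more (15895 of 58364 rows with values, 1 more row having none) were tested on log2(FPKM + 1) with limma 3.58.1 in R 4.3.3 (mean-variance trend, two-sided, Benjamini-Hochberg), which was tested on simulated data. Fold changes on this scale understate those of low genes. The main comparison took MSX2_KO against WT, and a block for the replicate number was added as the alternative. The set letter in the labels goes with the number, and libraries of the same number deviated together (r = 0.51 for WT with 1#, 0.54 for WT with 2#, 0.64 for 1# with 2#), so the number was taken to pair the libraries. The table's columns name the clones 1# and 2#, which the sample titles number otherwise. Other fits used a pseudocount of 0.1, no filter, a mean of at least 1 FPKM, rescaled libraries, 3 groups, each clone alone, and each library left out.

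Genes named were the 10 members and, per list, at most 4 genes with the smallest adjusted p under 0.05 in either fit, MSX2, PECAM1 and the 3 genes most like MYB and MYC, and the other genes named were picked after their values were seen. The members and lists were chosen with earlier results of these data known. Of 56595 symbols, 54894 (97%) were in GENCODE 29 (GRCh38), which gave the positions. GRCh38 is not the build of the processing notes. Some genes of the lists enter the counts but are not reported here by name.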

Additional observations from a re-analysis of the deposited data

Results flagged for a closer look

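MYBL1 in the MSX2_KO group was picked out because 1 library stood apart from the other 3. It had 0.466 FPKM in 2# replicate 1 and 0.231 to 0.261 FPKM in the others, and the gap was 0.872 of the group's range, above Dixon's critical value for 4 libraries. Chance gives such a gap in about 1 of 20 groups, 10 genes were looked at, and all 4 values are below the filter on low FPKM.

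MAX was picked out because the clones lay on opposite sides of WT, with 1# above and 2# below the WT library of the same number in both sets. The difference of 2# minus 1# was -0.295 on the log2 scale (unadjusted p = 0.0279, adjusted p = 1 over all genes from limma with the replicate block), so it did not pass the correction.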

How the results depend on the processing

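No member passed without the replicate block under any of the other settings, and with it 2 did (MYB and MYC), as did 1 (MYC) for 1# against WT and 1 (MYC) for 2# against WT. The block changed the call of no other member. Between the sets 7 members passed, and 5 with genotype as 3 groups. The count of all genes called, 204 without the block, was 1566 with the replicate block, 98 with no filter, 6 with WT and the clones as 3 groups, 0 for clone 1# alone, 1 for clone 2# alone, and 11 to 76 with each library left out. With the block and no filter it was 153, and the cause of these changes was not tested. Over the left-out libraries, without the block, MYCL ran from -0.28 to 0.65 and MAX from -0.11 to 0.073. The sign of MYCL turned without WT replicate 2 (-0.28). That of MAX turned without WT replicate 1 (0.073), without 2# replicate 1 (0.031), without 2# replicate 2 (0.046) and for clone 1# alone (0.14). MYB, MYBL2, MYC, MYCN, MXD4 and MXI1 kept their sign in all 14 settings and MXD1 in all 13 that kept it. Combinations of the block with other settings were added after the data were seen. In these, MYCN passed with the block without 1# replicate 1 (adjusted p = 0.0472). Without the block, the size of most differences depended on which of the 2 WT libraries was left out. Each such fit held WT from 1 set alone. With the block, MYC was at 1.35 without WT replicate 1 and at 1.10 without WT replicate 2. In the same order MYCN was at 0.48 and 0.37, and MXI1 at 0.27 and 0.45. MYB was at 0.89 and 0.54, and MYCL at 0.50 and -0.12.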
